A study of Schizosaccharomyces pombe with 3 samples.

Results

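Centromere 2 of the fission yeast Schizosaccharomyces pombe and its flanks were described in 307 consecutive bins of 200 bp, from base 1591745 to base 1653144 of chromosome II in the assembly ASM294v3. The bins were chosen by position alone, out of 62681 such bins of the nuclear genome outside the ribosomal DNA. All 3 chromatin immunoprecipitation sequencing (ChIP-seq) libraries came from strain 972 h- in log phase in YEA medium with glucose, with 1 library per group. For the Med7 library, cells carried Med7 with a TAP tag and chromatin was precipitated on IgG Sepharose beads. For the Pol II library, untagged cells were used with the antibody 4H8, which binds the C-terminal domain (CTD) of the largest subunit of RNA polymerase II (Pol II). The control came from untagged cells with no antibody and is called the bead control here, although the labels name beads for the Med7 library alone. Med7 is thus compared with a control without its tag, and not with untagged cells on beads stated to be the same. Each ratio below compares libraries, not conditions, no difference has a replicate check, and no p-value is given.

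Fission yeast centromeres have a central core flanked by inverted repeats. In the core many nucleosomes carry CENP-A, the histone H3 variant on which the kinetochore is built. The outer repeats are packed into heterochromatin marked by methylation of histone H3 and are kept silent through RNA interference. Clusters of tRNA genes, which RNA polymerase III transcribes, mark the borders between these domains and the chromosome arms. Mediator is the complex that carries signals from transcription factors to Pol II, and Med7 is a subunit of its middle module. The study's title names its question, a part of Mediator in placing CENP-A at these centromeres.

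A few sequences show the base composition of the bins on which the ratios below turn, 3 of them in the core. The first bin had the highest Med7 ratio to the control in the core, the second the highest Pol II ratio in the core, the third the lowest Med7 ratio in the core, the fourth the highest Pol II ratio of the whole window, and the last the most control reads. All are from the plus strand of ASM294v3, and capitals mark stretches of 8 or more bases that are only A or T.
chr2:1624345-1624544, core: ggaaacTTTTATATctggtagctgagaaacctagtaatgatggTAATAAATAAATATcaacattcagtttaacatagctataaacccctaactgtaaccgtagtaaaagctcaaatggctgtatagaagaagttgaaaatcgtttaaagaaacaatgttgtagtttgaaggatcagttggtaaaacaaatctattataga
chr2:1625145-1625344, core: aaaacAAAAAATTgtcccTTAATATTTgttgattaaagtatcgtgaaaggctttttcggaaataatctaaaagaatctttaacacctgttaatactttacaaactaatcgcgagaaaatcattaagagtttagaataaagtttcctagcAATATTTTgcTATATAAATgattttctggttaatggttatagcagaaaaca
chr2:1627345-1627544, core: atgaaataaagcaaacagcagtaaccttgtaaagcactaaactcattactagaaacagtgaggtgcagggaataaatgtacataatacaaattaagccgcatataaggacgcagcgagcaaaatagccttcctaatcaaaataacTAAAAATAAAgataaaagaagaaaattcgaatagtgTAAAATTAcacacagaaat
chr2:1651145-1651344, in rps402: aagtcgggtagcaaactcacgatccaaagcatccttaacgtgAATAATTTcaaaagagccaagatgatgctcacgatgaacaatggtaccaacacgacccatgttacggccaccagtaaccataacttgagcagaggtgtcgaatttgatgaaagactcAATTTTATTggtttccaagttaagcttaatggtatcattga
chr2:1603345-1603544, left outer region: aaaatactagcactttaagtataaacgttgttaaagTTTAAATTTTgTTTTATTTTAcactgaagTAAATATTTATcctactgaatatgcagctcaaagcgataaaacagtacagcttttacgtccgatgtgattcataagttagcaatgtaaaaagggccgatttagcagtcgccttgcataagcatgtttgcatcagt
Such a stretch was found in 33 of the 33 bins that lie wholly in the core and in 79.8% of 59749 unique bins of the genome, but also in 97.7% of the genome's bins of 25 to 35% GC. The median number of bases in such stretches was 37 in core bins, 30 in genome bins of that GC range and 17 in all unique genome bins.

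The tRNA genes nearest to the core stand on both sides of it, 1550 bp to the left and 1549 bp to the right. Both are annotated as valine tRNA genes and are shown on their own strand, minus for the left and plus for the right. Capitals mark the word GTTCGANNC, taken here for the B box, an internal promoter element of tRNA genes.
SPBTRNAVAL.06, chr2:1619174-1619256: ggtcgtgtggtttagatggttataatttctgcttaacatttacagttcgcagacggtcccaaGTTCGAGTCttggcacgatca
SPBTRNAVAL.07, chr2:1629159-1629241: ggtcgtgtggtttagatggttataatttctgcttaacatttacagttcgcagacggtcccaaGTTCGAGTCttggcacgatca
The genes were identical at 83 of 83 bases, so no read can be assigned to one side. The word was found in 22 of the 27 tRNA genes of the window and 131 of the 171 nuclear tRNA genes on their own strand, in 0.916% of unique 200-bp bins on either strand, and in 0 of 33 core bins.

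What could be read of the centromere depended on its repeats. The deposited reads began only at 45-base sequences that occur once in the genome, so no read starts in a repeated sequence in any library, whatever was bound there. Reads were counted at the assumed centre of their fragment, so 8 bins without a unique position hold a few reads that start beside them. Of the 307 bins, 101 had unique starts at 90% or more of their positions, 9 had them at 50 to 90%, and 174 had none. In 171 bins all 3 libraries were at 0 reads. The central core, from 1620807 to 1627609, was unique throughout its 6803 bp. The inner arms on either side matched each other at 99.758% over an alignment of 4136 bp. The inner repeats, taken from the core out to the nearest stretch that matches another centromere, held 68 unique positions on the left and 23 on the right. They gave 4 Med7, 10 Pol II and 2 control reads in all, too few to read a ratio from. The outer regions ran from that stretch to the nearest protein-coding gene, and so include the tRNA clusters and part of the inner arms. They were unique at 14.6% of 22519 bp on the left and 13.1% of 19080 bp on the right. The flanks of 5000 bp on the left and 4913 bp on the right were unique at 99.04% and 100.0% of positions.

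**Figure D1:**
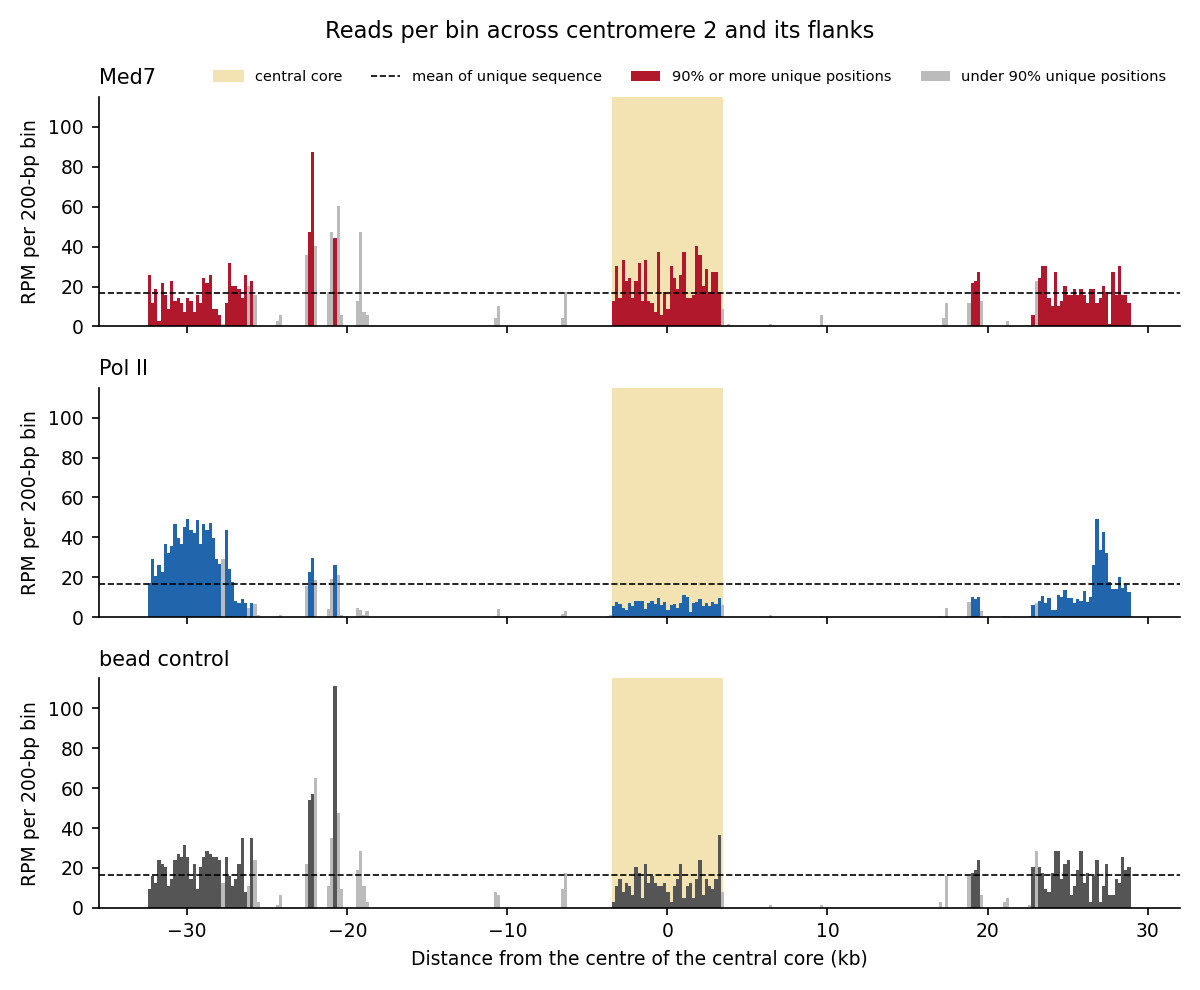
Reads per 1000000 nuclear reads (RPM) in each 200-bp bin against the distance from the centre of the core in kb, for Med7, Pol II and the bead control from top to bottom. Coloured bars are bins with 90% or more unique positions, grey bars the others, the shaded band is the central core and the dashed line the mean over unique sequence. Med7 stands above the mean in the core, while Pol II is low there and high in the left flank.

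Depth limits each bin. Counts were scaled to nuclear reads outside the ribosomal DNA, which numbered 696101 for Med7, 1687058 for Pol II and 630825 for the control, and are given as RPM (per 1000000 of these reads). The totals equal 57.8, 140.0 and 52.4 reads per kb of unique sequence. The Pol II library varied far more along the genome, with an SD of 1.50 times the mean over unique bins, against 0.437 for Med7 and 0.414 for the control. Mitochondrial reads were 23.8% of all reads for Med7, 7.73% for Pol II and 6.84% for the control. Intervals in parentheses are exact 95% ones for the counts. They cover counting error only, because each group has 1 library. Each read is taken as a separate molecule, but PCR copies cannot be told from separate molecules when reads carry no molecular identifier. The intervals may therefore be too narrow.

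In the central core Med7 reads were more frequent than control reads, and Pol II reads were fewer. The core held 524 Med7 reads, 393 Pol II reads and 274 control reads. Scaled to depth, these were 753 RPM for Med7, 233 RPM for Pol II and 434 RPM for the control. The Med7 library was the highest of the 3 and the Pol II library the lowest. Med7 was at 1.73 times the control (1.49 to 2.01) and Pol II at 0.536 times (0.458 to 0.628). Med7 was at 3.23 times Pol II (2.83 to 3.69), a ratio that does not involve the control. The median of this ratio over measured genome bins was 1.32, so values above 1 were common outside the core too. Against each library's own mean per kb of unique sequence, the core stood at 1.33 for Med7, 0.413 for Pol II and 0.769 for the control. The Med7 ratio thus combines a core above the mean in the Med7 library with a core below it in the control.

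The same directions held along the core. Of its 33 bins, 29 had more Med7 than control RPM, 29 had less Pol II than control RPM, and 32 had more Med7 than Pol II RPM. Over the measured bins of the genome, Med7 was above the control in 28893 of 58675. Pol II was above the control in 20438 of 59319, and Med7 above Pol II in 38384 of 59550. The median Pol II ratio of genome bins was 0.777, so Pol II below the control was common outside the core too. Reads per core bin ran from 4 to 28 (median 16) for Med7, from 4 to 19 (median 12) for Pol II and from 2 to 23 (median 8) for the control. In steps of 1000 bp from left to right, Med7 stood at 2.29, 1.83, 1.19, 2.09, 1.65, 2.09 and 1.29 times the control. The intervals of the third step (0.793 to 1.79) and of the last step, which is 803 bp long (0.867 to 1.93), included 1. Pol II ranged from 0.432 to 0.670 times the control over these steps, and Med7 from 2.31 to 4.09 times Pol II. No step therefore had more Pol II than control or more Pol II than Med7. Read strands were balanced in the core, with 52.9% of Med7 reads (48.5 to 57.2), 54.2% of Pol II reads (49.1 to 59.2) and 50.7% of control reads (44.6 to 56.8) on the plus strand. Reads that repeat the position and strand of another made up 16.6% of the Med7 reads, 5.34% of the Pol II reads and 16.4% of the control reads in the core. With 1 read kept per position and strand, Pol II over the control in the core was 0.638 (0.540 to 0.756).

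A bin was counted when at least 90% of its positions were unique and both libraries of the comparison together held 10 or more reads. It was called high where the ratio was 2 or more and the lower bound exceeded 1, and low at 0.5 times or less with the upper bound under 1. For Med7 over the control, 13 of 100 measured bins of the window were high, against 5.65% of bins in the genome, and 11 were low, against 5.91%. The core gave 7 of the high bins and 1 of the low bins from its 33 bins. For Pol II over the control, 7 of 101 measured bins were high, against 7.6% in the genome, and 21 were low, against 16.0%. The core gave 0 of the high and 8 of the low bins. The share of high Pol II bins in the window was close to that of the genome, but with reads counted at their 5' ends it was 13 of 100, against 7.40% of the genome. In the same way the low Med7 bins numbered 5 of 100, against 5.07% of the genome. Scaled to the median 1-kb bin in place of all reads, 29 bins were high and 10 were low for Pol II, against 14.3% and 5.61% of genome bins scaled in that way. For Med7 over Pol II, 34 of 101 bins were high, against 19.8% in the genome, and 22 were low, against 9.51%. The core gave 21 of those high bins from its 33 bins and 0 of the low ones, while the left flank gave 18 of the low ones. The outer regions had a like share of high bins, 6 of 10 measured on the left and 5 of 8 on the right, with 0 low. High Med7 over Pol II was thus not particular to the core.

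**Figure D2:**
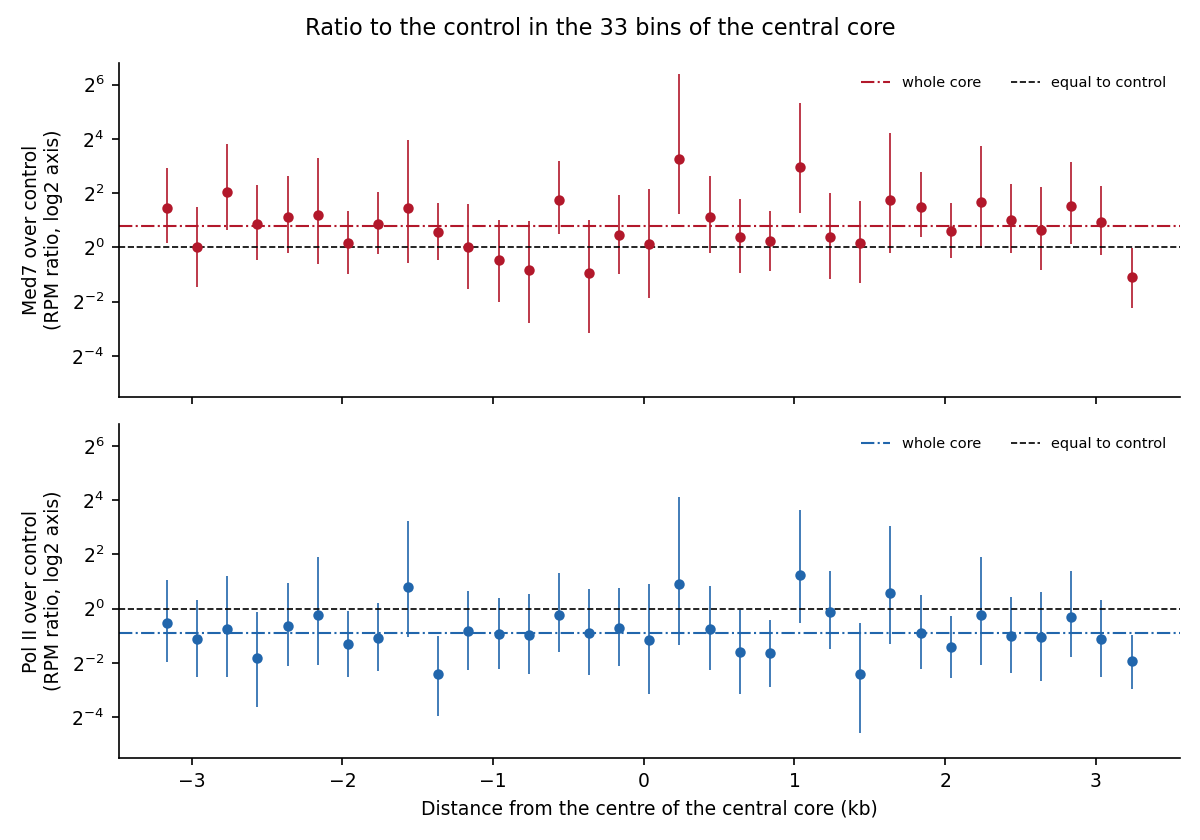
Ratio of RPM to the bead control in each of the 33 bins of the central core, on a log2 axis, for Med7 (top) and Pol II (bottom), against the distance from the centre of the core in kb. Points are ratios, bars exact 95% counting intervals, the dashed line equality and the other line the ratio of the whole core (1.73 for Med7, 0.536 for Pol II). In 29 of 33 bins Med7 lies above equality, and in 29 of 33 Pol II lies below it. The median ratio of measured genome bins was 0.997 for Med7 and 0.777 for Pol II.

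Within the core, the bins with the highest ratios held few control reads. The first sequence above, chr2:1624345-1624544, held 21 Med7 reads, 10 Pol II reads and 2 control reads. Its Med7 ratio of 9.52 (2.33 to 83.7) was the highest of the window and its Pol II ratio was 1.87 (0.398 to 17.5). The second, chr2:1625145-1625344, held 26 Med7, 19 Pol II and 3 control reads. Its Med7 ratio was 7.85 (2.41 to 40.5), and its Pol II ratio of 2.37 (0.697 to 12.5) was the highest of the core. These were also the core's highest bins for Pol II, and the low control counts enter both ratios. The third bin for Pol II, chr2:1622545-1622744, held 9 Med7, 14 Pol II and 3 control reads (1.75, 0.487 to 9.47). The third bin for Med7, chr2:1621345-1621544, held 23 Med7, 8 Pol II and 5 control reads, which gave 4.17 (1.55 to 14.0). In Med7 counts alone, bins with 26 or 28 reads led the core.

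At the low end of the core, chr2:1627345-1627544 at its right edge held 12 Med7, 16 Pol II and 23 control reads. It had the most control reads of any core bin, and its ratios were 0.473 for Med7 (0.214 to 0.990) and 0.260 for Pol II (0.128 to 0.514). The next lowest Med7 ratios, 0.518 (0.111 to 2.04) at chr2:1623745-1623944 and 0.566 (0.146 to 1.96) at chr2:1623345-1623544, had 4 and 5 Med7 reads against 7 and 8 control reads. Both intervals included 1. The lowest Pol II ratios of the core were 0.187 (0.0639 to 0.495) at chr2:1622745-1622944, with 7 Pol II and 14 control reads, and 0.187 (0.0412 to 0.698) at chr2:1625545-1625744, with 4 Pol II and 8 control reads. Med7 had 23 and 10 reads in these bins.

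The core holds annotated non-coding RNAs, whose function is not given in the annotation. SPNCRNA.370, a long non-coding RNA of 478 bp on the plus strand (chr2:1625750-1626227), held 53 Med7, 32 Pol II and 18 control reads. Its Med7 ratio was 2.67 (1.54 to 4.84) and its Pol II ratio 0.665 (0.362 to 1.26). Med7 was thus more frequent than the control over it, while the Pol II interval included 1. Both intervals also included the ratios of the whole core, 1.73 and 0.536, so it was not set apart from the core. Its GC was 29.1%, and genome bins of 25 to 30% GC without a coding gene had a Med7 ratio of 1.52, just below its interval. SPNCRNA.369, which starts at the left edge of the core (chr2:1620799-1620937), held 8 Med7, 6 Pol II and 2 control reads, with ratios of 3.62 (0.723 to 35.04) for Med7 and 1.12 (0.201 to 11.4) for Pol II. These counts do not distinguish it from the control.

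The core had a higher Med7 ratio to the control than any other usable stretch of its length in a fixed division of the genome. The nuclear genome outside the ribosomal DNA was divided into adjoining stretches of 6803 bp. Of these, 1725 besides the core were usable, with unique starts at 90% or more of their positions. Their Med7 ratio to the control had a median of 0.999, 90% of them lay from 0.816 to 1.21, and the highest reached 1.56, against 1.73 for the core. For Pol II over the control, 77 stretches were at or below the core's 0.536, the lowest at 0.327, so low Pol II was shared with other parts of the genome. For Med7 over Pol II, 1 stretch reached the core's 3.23, at 3.30. The median of the other stretches was 1.24, and 90% of them lay from 0.478 to 1.90. The core also had the lowest GC of them all, 28.6% against 30.2% for the next lowest. No other stretch therefore had as low a GC, though 67 lay within 5 points of it. These were not compared with the core on their own.

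**Figure D3:**
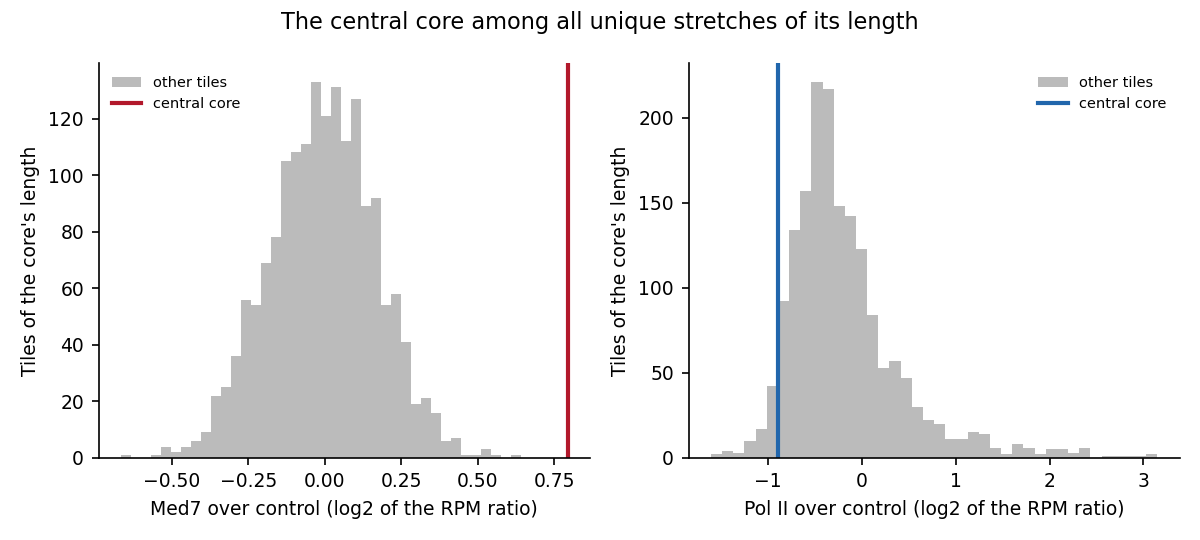
Number of stretches of the core's length (6803 bp) by log2 of the RPM ratio to the bead control, for Med7 (left) and Pol II (right). Grey bars are the other 1725 stretches and the coloured line is the central core. The core lies beyond every other stretch for Med7 and within the lower part of the range for Pol II.

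Base composition moved with the Med7 ratio. Over 58529 measured bins outside the window the Pearson correlation of Med7 over the control with GC was -0.41, and over the 33 core bins it was -0.06. Bins share libraries and neighbours, so these are descriptions. The core bins ran only from 23.0 to 36.5% GC and held few reads each, so their correlation says little beside that of the genome. Among bins of 25 to 30% GC, the 16 in the core had 280 Med7 and 128 control reads, a ratio of 1.98 (1.60 to 2.46). Genome bins of that class had 1.52 (1.50 to 1.55) without a protein-coding gene and 1.30 (1.28 to 1.32) in coding sequence. In the class of 20 to 25% GC the 4 core bins stood at 1.48 (0.972 to 2.28), against 1.57 (1.51 to 1.62) for non-coding genome bins. In the class of 30 to 35% the 11 core bins stood at 1.47 (1.11 to 1.95), against 1.38 (1.36 to 1.40). In the class of 35 to 40% the 2 core bins stood at 1.61 (0.877 to 3.05), against 1.22 (1.19 to 1.25). Of these 4 classes, that of 25 to 30% GC was thus the one in which the intervals of core and non-coding sequence did not overlap.

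Divided by the ratio of all genome bins of like GC, in classes of 2 points, the core's Med7 ratio was 1.27 (1.10 to 1.47). Divided by that of genome bins without a coding gene it was 1.17 (1.01 to 1.36), an alternative chosen after the data were seen. After the first division the window had 8 high Med7 bins, or 8.0% of those measured, against 4.17% of the genome, with 4 of the 8 in the core. Pol II over the control had a linear correlation with GC of 0.01 over 59176 bins, but it was not constant across GC classes. Over all genome bins outside the window it was 1.04 at 20 to 25% GC, 0.857 at 35 to 40% and 1.59 at 45 to 50%. In bins without a coding gene these classes stood at 0.764, 0.823 and 0.867. In non-coding bins of 25 to 30% GC it was 0.796 (0.783 to 0.808), against 0.543 (0.432 to 0.686) in the core. Divided by the non-coding classes the core's Pol II ratio was 0.675 (0.577 to 0.791) and its Med7 ratio to Pol II 1.72 (1.51 to 1.97).

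**Figure D4:**
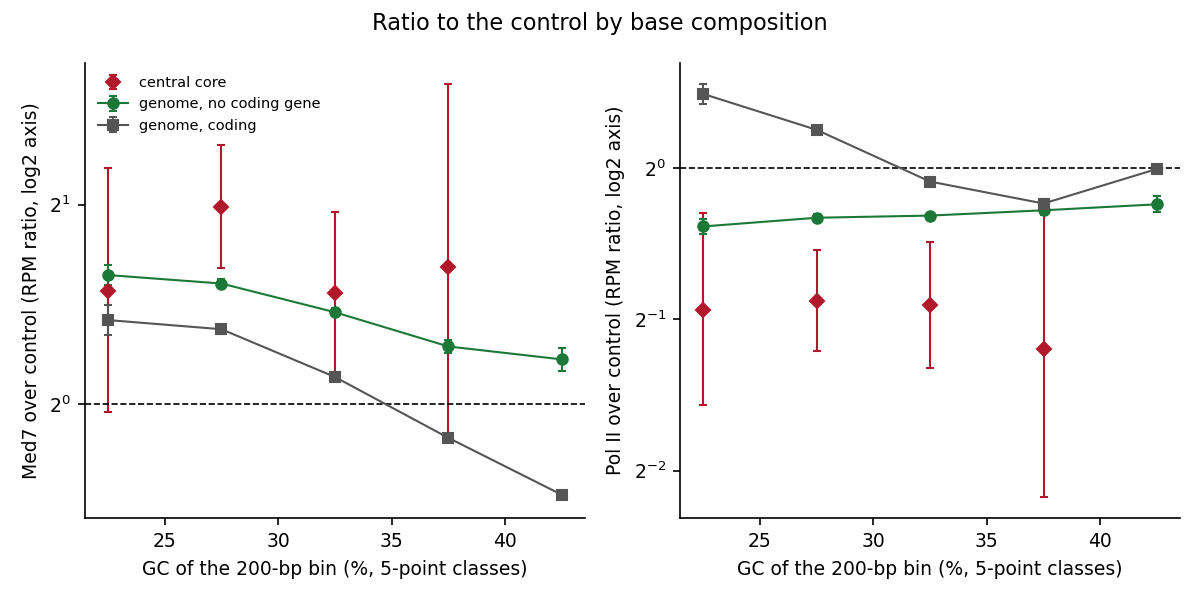
Ratio of RPM to the bead control (log2 axis) against the GC of 200-bp bins in 5-point classes, for Med7 (left) and Pol II (right), each with exact 95% counting intervals. Diamonds are core bins, circles genome bins without a coding gene and squares coding bins of the genome. Med7 falls with GC in both genome series, and the interval of the core lies above the non-coding series at 25 to 30% GC, while its Pol II values lie below that series.

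The core differed from its flanks within the same libraries. Med7 over the control was 0.809 (0.717 to 0.912) over both flanks, from 523 Med7 and 586 control reads, and the core's ratio was 2.14 times that (1.77 to 2.60). Pol II over the control was 1.42 (1.30 to 1.56) in the flanks, from 2232 Pol II reads, and the core's ratio was 0.377 times that (0.314 to 0.453). The flanks have 39.3% GC. The Med7 ratio of the flanks became 0.950 (0.843 to 1.07) after division by the ratio of genome bins of like GC, against 1.27 in the core treated alike.

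The outer regions were low in Pol II, and the intervals of their Med7 ratios included 1 before division by GC. The left outer region held 483 Med7, 463 Pol II and 443 control reads, with a Med7 ratio of 0.988 (0.867 to 1.13) and a Pol II ratio of 0.391 (0.342 to 0.446). The right outer region held 176 Med7, 167 Pol II and 143 control reads, with 1.12 (0.889 to 1.40) for Med7 and 0.437 (0.347 to 0.550) for Pol II. Divided by the ratio of genome bins of like GC, both sides together stood at 0.827 for Med7 (0.739 to 0.926), and at 0.733 (0.655 to 0.821) with non-coding classes, so that these intervals lay below 1. The sides were alike, and their ratios to each other were 0.886 (0.680 to 1.15) for Med7 and 0.895 (0.685 to 1.17) for Pol II. The core's ratio was 1.70 times that of both outer regions for Med7 (1.41 to 2.05) and 1.33 times for Pol II (1.10 to 1.62). Med7 over Pol II was 2.54 (2.27 to 2.83) in both outer regions together, and the core's ratio was 1.27 times that (1.07 to 1.52). The lowest Med7 ratio of the outer regions was 0.279 (0.0662 to 0.903) at chr2:1646945-1647144, with 4 Med7, 10 Pol II and 13 control reads. These pooled values rest on 5792 unique positions of 41599 bp, and say nothing of the repeated remainder.

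Med7 and control reads piled up in a short stretch of the left outer region, and Pol II reads did so less. The fifth sequence above, chr2:1603345-1603544, held 31 Med7, 44 Pol II and 70 control reads, more control reads than any of 59648 unique bins of the genome outside the window. The highest of those held 60, with a median of 10 and a 99th percentile of 22. Of the 70 control reads, 56 differed in position or strand. Nearby bins at chr2:1601945-1602144 held 61 Med7, 50 Pol II and 36 control reads, and at chr2:1603545-1603744, 42, 36 and 30. Scaled to depth, Pol II stood at 26.1, 29.6 and 21.3 RPM in these bins, against a genome mean of 16.5 RPM per unique bin. Against each library's own mean per kb of unique sequence, the left outer region stood at 2.54 for Med7, 1.00 for Pol II and 2.57 for the control. The high levels are thus present without antibody, and the Med7 ratio of 1.54 (1.00 to 2.39) at chr2:1601945-1602144 is small although its 87.6 RPM of Med7 were the highest of any unique bin of the window. Without the 5 outer bins with the most control reads, the outer regions stood at 1.12 for Med7 (0.977 to 1.29) and 0.430 for Pol II (0.373 to 0.495), an alternative chosen after the data were seen.

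**Figure D5:**
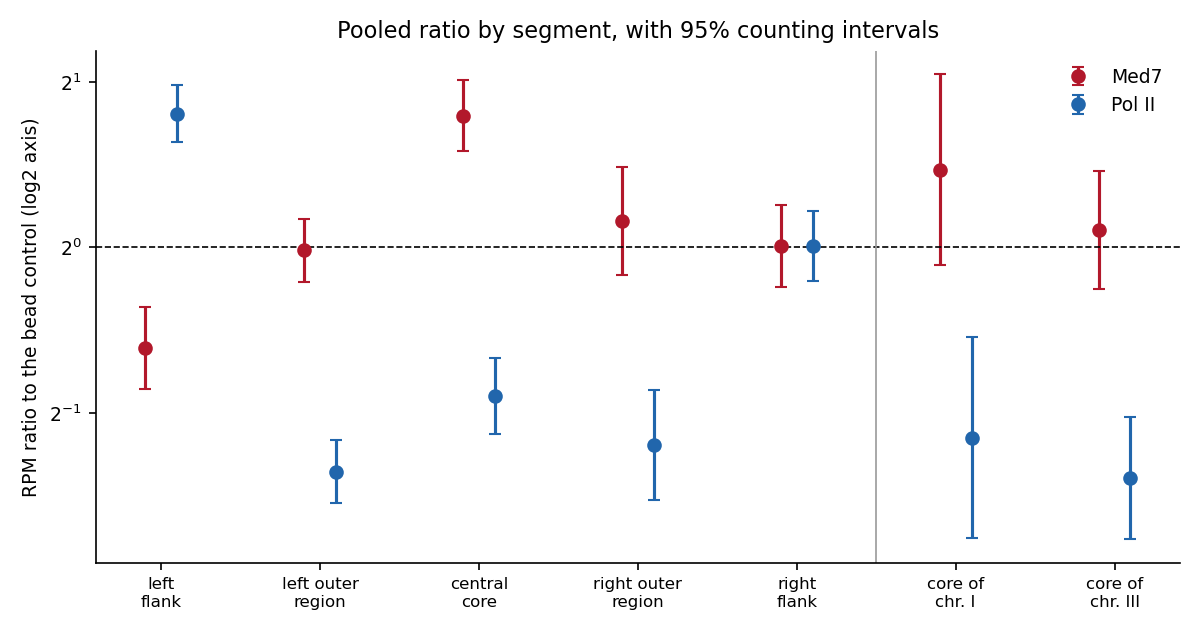
Pooled ratio of RPM to the bead control (log2 axis) in the flanks, outer regions and core of centromere 2 from left to right, and in the cores of chromosomes I and III, for Med7 and Pol II. Points are ratios of pooled reads and bars exact 95% counting intervals, and the inner repeats are left out for want of reads. The core of centromere 2 has the highest Med7 ratio shown, and the Pol II interval lies above 1 in the left flank, includes 1 in the right flank and lies below 1 in the other segments.

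Annotated non-coding RNAs of the outer regions were readable in a few places. Of the 47 long non-coding RNAs of the window, 11 were 90% or more unique and 21 had no unique position. On the left, SPNCRNA.359 (chr2:1602773-1604997), unique at 28.7% of its positions and covering the bin with the most control reads, held 148 Med7, 132 Pol II and 159 control reads, or 0.844 (0.670 to 1.06) for Med7 and 0.310 (0.245 to 0.393) for Pol II. On the right, SPNCRNA.374 (chr2:1647478-1647927) held 42 Med7, 32 Pol II and 21 control reads, or 1.81 times the control for Med7 (1.05 to 3.22) and 0.570 for Pol II (0.319 to 1.04). SPNCRNA.5278 (chr2:1647763-1648122), which overlaps it on the other strand, held 30, 26 and 11, or 2.47 (1.20 to 5.47) for Med7 and 0.884 (0.422 to 1.98) for Pol II. Reads of the overlap count for both. Also on the left, SPNCRNA.5253 (chr2:1597411-1597858) held 31 Med7, 31 Pol II and 32 control reads, or 0.878 (0.518 to 1.49) and 0.362 (0.214 to 0.613). The intervals for Med7 lay above 1 over the right pair and included 1 over SPNCRNA.5253, and the difference between them was not tested. The GC was 27.8% and 30.3% for the right pair and 30.4% for SPNCRNA.5253. Genome bins without a coding gene had a Med7 ratio of 1.52 at 25 to 30% GC and 1.38 at 30 to 35% GC. The Med7 interval of each of these RNAs included the value of its class.

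The windows of the tRNA genes were low in Pol II, while their Med7 ratio changed its call with the processing. Of the 27 tRNA genes, 23 had no unique position, so their windows, with 100 bp on each side, are read mostly from flanking sequence. The 19 merged windows held 118 Med7, 93 Pol II and 130 control reads over 1066 unique positions. Med7 was at 0.823 times the control (0.636 to 1.06) and Pol II at 0.268 times (0.203 to 0.352). The Med7 interval lay below 1 with 1 read per position and strand (0.711, 0.531 to 0.949), after GC division (0.748, 0.578 to 0.967, or 0.626, 0.484 to 0.810, with non-coding classes) and with 50 bp on each side (0.708, 0.516 to 0.968). With 250 bp on each side Med7 was at 1.03 (0.861 to 1.24). Around 33 unique tRNA genes elsewhere in the genome the values were 0.838 (0.754 to 0.932) for Med7 and 0.379 (0.342 to 0.420) for Pol II. Low Pol II was thus also found at tRNA genes elsewhere, and the difference between the sets was not tested.

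Of individual tRNA windows, 4 had 10 or more reads in every library, and overlapping windows share reads. SPBTRNAMET.05 (methionine, left) had 24 Med7, 12 Pol II and 24 control reads, or 0.906 (0.493 to 1.67) for Med7 and 0.187 (0.0852 to 0.389) for Pol II. SPBTRNAARG.07 (arginine, right) had 27, 16 and 24, or 1.02 (0.566 to 1.85) and 0.249 (0.124 to 0.489). SPBTRNAARG.06 (arginine, left), in the stretch of high control, had 38, 41 and 48, or 0.717 (0.456 to 1.12) and 0.319 (0.205 to 0.495). All 3 were low in Pol II with Med7 intervals that included 1. SPBTRNAASN.01 (asparagine, left) had 20, 11 and 10, or 1.81 (0.810 to 4.34) and 0.411 (0.159 to 1.08), and both its intervals included 1. In 16 windows there were 0 reads in all 3 libraries, among them those of both valine genes printed above.

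The left flank lies wholly in the body of rpb1, which encodes the largest subunit of Pol II (SPBC28F2.12, plus strand, chr2:1591140-1596744), and showed the opposite of the core. Its 5000 bp in the window held 239 Med7, 1544 Pol II and 330 control reads. Pol II was at 1.75 times the control (1.55 to 1.98) and Med7 at 0.656 times (0.553 to 0.778). All 24 measured bins had more Pol II than control RPM. The highest were chr2:1594745-1594944, with 82 Pol II and 6 control reads (5.11, 2.25 to 14.3), and chr2:1594345-1594544, with 74 and 9 (3.07, 1.53 to 6.99). The lowest Med7 ratio of the window was here too, at chr2:1592345-1592544, with 2 Med7 and 15 control reads (0.121, 0.0134 to 0.520). Further low Med7 bins of rpb1 lay at chr2:1593945-1594144 (5 and 20 reads, 0.227), chr2:1596145-1596344 (4 and 15, 0.242) and chr2:1594545-1594744 (5 and 14, 0.324). These bins have 42.5 to 45.5% GC. Coding bins elsewhere in the genome had a Med7 ratio of 0.728 at 40 to 45% GC and 0.611 at 45 to 50% GC. The Med7 interval over rpb1 included both values, so its low Med7 ratio was shared with coding sequence of like GC. The 6 antisense RNAs that overlap rpb1 in the window, SPNCRNA.5247 to SPNCRNA.5252, cannot be told apart from it. Over SPNCRNA.5251 (chr2:1594447-1594954), in the part of rpb1 with the highest bins, 20 Med7, 190 Pol II and 21 control reads gave a Pol II ratio of 3.38 (2.15 to 5.59). Over SPNCRNA.5248, SPNCRNA.5249, SPNCRNA.5250 and SPNCRNA.5252 the Pol II ratio ranged from 1.81 to 1.97, and SPNCRNA.5247 held 5, 9 and 1 reads in the window.

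Pol II ratios dropped below 1 within the left edge of the outer region. For comparison, the median Pol II ratio of all measured genome bins was 0.777. The first bins past the end of rpb1 had 41 and 30 Pol II reads against 10 and 7 in the control. Their ratios were 1.53 (0.755 to 3.43) and 1.60 (0.690 to 4.32). Further towards the core, ratios were 0.582 (0.234 to 1.52) at chr2:1597145-1597344 and 0.320 (0.135 to 0.747) at chr2:1597345-1597544. These bins precede the first tRNA gene of the left cluster, SPBTRNAASN.01, which starts at 1597996. On the right the lowest Pol II ratio of the window, 0.125 (0.0405 to 0.328), lay in yox1 at chr2:1648345-1648544, with 19 Med7, 6 Pol II and 18 control reads. A ratio of 0.204 was found in the bin that spans its start, chr2:1648145-1648344 (6 Pol II and 11 control reads, 0.0619 to 0.602), and at the left tRNA cluster, chr2:1598145-1598344 (12 and 22, 0.0920 to 0.430). Med7 had 7 and 16 reads in these bins.

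The right flank as a whole did not differ from the control, with 284 Med7, 688 Pol II and 256 control reads and ratios of 1.01 (0.846 to 1.20) for Med7 and 1.00 (0.869 to 1.16) for Pol II. Its genes differed among themselves. The gene nearest to the centromere, yox1, which encodes a repressor of genes of the G1 to S transition (SPBC21B10.13C, chr2:1648232-1648840), held 33 Med7, 34 Pol II and 48 control reads, or 0.623 (0.387 to 0.991) for Med7 and 0.265 (0.166 to 0.420) for Pol II. The next, rec6, needed for meiotic recombination (SPBC21B10.12, chr2:1648948-1650156), held 75, 96 and 70, or 0.971 (0.692 to 1.37) and 0.513 (0.373 to 0.708). For dpm2, of dolichol phosphate mannose synthase (SPBC21B10.11, chr2:1650289-1650680), the counts were 15, 29 and 16, or 0.850 (0.391 to 1.84) and 0.678 (0.356 to 1.34). Pol II over these 3 genes was thus lowest beside the centromere, though the intervals of neighbouring genes overlap.

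The ribosomal protein gene rps402, for S4 of the small subunit (SPBC21B10.10, chr2:1650825-1651833), had the highest Pol II ratio of the 7 protein-coding genes of the window. It held 52 Med7, 318 Pol II and 51 control reads, or 0.924 (0.616 to 1.39) for Med7 and 2.33 (1.73 to 3.20) for Pol II. The fourth sequence above, chr2:1651145-1651344, lies in it and held 10 Med7, 57 Pol II and 2 control reads, a Pol II ratio of 10.7 (2.82 to 90.1) and a Med7 ratio of 4.53 (0.966 to 42.5). The bin after it, chr2:1651345-1651544, held 72 Pol II and 7 control reads (3.85, 1.77 to 9.91). The antisense RNA SPNCRNA.5279 overlaps this bin and cannot be separated from rps402, and over its own length the Pol II ratio was 2.86 (1.63 to 5.40). Beyond it, kgd4, annotated in the mitochondrial oxoglutarate dehydrogenase complex (SPBC21B10.14, chr2:1652031-1652538), held 39 Med7, 70 Pol II and 20 control reads, or 1.77 (1.01 to 3.20) and 1.31 (0.787 to 2.27). It lies within SPBC21B10.09 on the other strand, whose part in the window held 81, 156 and 62 reads, or 1.18 (0.840 to 1.68) and 0.941 (0.697 to 1.28). Further Med7 bins high in the window fell in this flank, at chr2:1650545-1650744, partly in dpm2 (13 against 2 control reads, 5.89, 1.33 to 53.8), and chr2:1651945-1652144 (19 against 4, 4.30, 1.43 to 17.4). The bin in dpm2 also had a Pol II ratio of 3.18 (0.754 to 28.4), from 17 Pol II reads.

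The other cores could be read only in part, since 962 of 4118 positions were unique in that of chromosome I and 1937 of 4853 in that of chromosome III. For Med7 over the control, the core of chromosome I had 67 and 44 reads, a ratio of 1.38 (0.930 to 2.07), and that of chromosome III 147 and 124, a ratio of 1.07 (0.840 to 1.38). The ratio in the core of centromere 2 was 1.61 times that of chromosome III (1.21 to 2.15) and 1.26 times that of chromosome I (0.815 to 1.92), so only the first of these differences exceeded counting error. The control itself stood at 0.769 times its own mean in the core of centromere 2, 0.874 in that of chromosome I and 1.22 in that of chromosome III, while Med7 stood at 1.33, 1.21 and 1.31 times its own mean. The Med7 levels of the 3 cores were thus closer to each other than their ratios to the control. Med7 over Pol II was 3.23 (2.83 to 3.69), 3.06 (2.11 to 4.48) and 2.83 (2.21 to 3.62), and Pol II over the control in the cores of chromosomes I and III was 0.450 (0.296 to 0.688) and 0.380 (0.294 to 0.491).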

How the data were processed

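The authors deposited, for each of the 3 libraries, a list of aligned reads with chromosome, first base, last base and strand, and with no count, signal or normalisation. Bowtie 0.12.7 is named in the submitters' processing notes with no role. The build, the mismatches allowed and any filter on multiple hits were not given in the sources used here. Of the 45-base nuclear reads, 0 in any library began at a sequence that occurs more than once in ASM294v3, while 165 Med7, 285 Pol II and 122 control reads did with starts moved back by 1 base, so the starts were read as 1-based positions of that assembly.

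Read counts were made from the deposited lists. The 5' end of each read was moved towards its 3' end by 81 bp (Med7), 76 bp (Pol II) or 81 bp (control), which is 0.5 of the fragment length found by strand cross-correlation between 100 and 300 bp. That correlation was 0.00499 for Med7, 0.0657 for Pol II and 0.00396 for the control, so the Med7 and control lengths rest on a weak signal. RPM ratios have exact conditional binomial intervals. Nuclear duplicates were 16.4% (Med7), 17.0% (Pol II) and 12.9% (control). The core was checked against the inverted repeats found with BLAST 2.17.0, and the interval rule was tested on simulated data. Every gene of the window was measured, and those named were every protein-coding gene, tRNA genes with 10 or more reads in each library, the tRNA genes nearest to the core, the annotated RNAs of the core, the non-coding RNAs that are 90% or more unique (those antisense to rpb1 as a group), SPNCRNA.359, chosen after its values were seen, and, for each ratio to the control, the 5 highest and 5 lowest bins of the window and the 3 highest and 3 lowest of the core. The fifth bin printed, with the most control reads, was chosen after its values were seen. The window, lists and tests were chosen with earlier results of these data known. Software was scipy 1.17.1, pandas 2.3.3, numpy 2.4.6 and matplotlib 3.10.9 under Python 3.11.15.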

Additional observations from a re-analysis of the deposited data

How the results depend on the processing

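No paired analysis was possible because each group has 1 library and the labels give no replicate numbers. Of the ratios of regions, the alternatives run moved the point value across 1 only for Med7 in the outer regions (both GC divisions) and in the tRNA windows (1.03 with 250 bp on each side). They changed whether the interval included 1 for Med7 alone: in the outer regions, in the tRNA windows as given above, and in the flanks after division by all bins of like GC. The Med7 ratio of the core was 1.27 divided by the ratio of like GC and 1.17 with classes from bins without a coding gene, chosen after the data were seen. In the same order, the outer regions stood at 0.827 and 0.733 for Med7, against 1.02, the flanks at 0.950 and 0.704, and the core's Med7 over Pol II at 2.42 and 1.72. The flanks lie mostly in protein-coding genes, so bins without a coding gene are an unlike reference for them. At 40 to 45% GC the Med7 ratio of the genome was 1.17 in such bins and 0.728 in coding bins. With the bins without a coding gene, Med7 was 0.626 in the tRNA windows, and Pol II was 0.675 in the core, 0.50 in the outer regions and 1.70 in the flanks. With 1 read per position and strand, Pol II was 0.638 in the core and 0.460 in the outer regions, and Med7 over Pol II in the core 2.82. Scaling to the median 1-kb bin moved the median log2 Pol II ratio of all bins to 0.13, against -0.36, and gave 0.753 in the core, 0.565 in the outer regions, 2.00 in the flanks, 0.376 in the tRNA windows and 2.32 for Med7 over Pol II in the core. Pol II was 0.459 in outer bins of 90% unique positions and 0.385 in tRNA windows with 250 bp on each side. In the inner repeats, counting without the shift gave no finite ratio, so that alternative has no value there. The alternative of bins of 90% unique positions only was run for the outer regions alone.

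Shares of genome bins called under the same alternative are given after each count. High Med7 bins were 8 of 100 after the GC division (4.17%) and 6 of 40 in 500-bp bins (5.38%). Low Med7 bins were 5 of 100 without the shift (5.07%), 5 of 100 without duplicates (3.41%), 6 of 100 after the GC division (3.89%), 4 of 40 in 500-bp bins (5.44%), 6 of 100 with bins moved by 100 bp (5.81%) and 7 of 70 at a minimum of 20 reads (5.87%). High Pol II bins were 13 of 100 without the shift (7.40%), 29 of 101 at the median scaling (14.3%), 12 of 101 after the GC division (7.64%), 4 of 40 in 500-bp bins (6.94%) and 12 of 100 with bins moved by 100 bp (7.60%). Low Pol II bins were 10 of 101 at the median scaling (5.61%) and 13 of 40 in 500-bp bins (18.6%). Bins of 500 bp number fewer by construction, and the other causes were not tested. In 99 further values the alternatives moved the result by less than its counting interval, or a count by less than 1.5 times. The unique share limits everything outside the core and flanks, and a bin's 10 or so reads allow calls only at large ratios.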
